A study of Mus musculus with 2 samples.

Results

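Open chromatin was examined around 10 mouse genes that encode the receptors and signalling Smads of the TGFβ family: the type II receptors Tgfbr2 and Bmpr2, the type I receptors Tgfbr1, Acvr1b, Acvr1 and Bmpr1a, the co-receptor Tgfbr3, the receptor Smads Smad2 and Smad3, and the common Smad Smad4. They were taken from 22380 annotated protein-coding genes by name. A peak was assigned to a gene when it overlapped the gene body or lay within 50 kb of it. This assignment is by distance alone, and it does not say which gene a site acts on. The rule collected 39 of the 17784 distinct vehicle peaks and 46 of the 22600 distinct TGFβ 2 h peaks.

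The study mapped sites that DNaseI cuts readily (DNaseI-seq) in NMuMG, an untransformed epithelial line from the mammary gland of the mouse. Both groups spent 6 h without serum and insulin. One group then received TGFβ1 at 5 ng/ml for 2 h, and the other received only the acid and albumin carrier (vehicle). There was 1 peak list per condition, so every difference below separates 2 lists, with no spread between replicates and no test of the treatment. The lists hold no read numbers and nothing was scaled by depth. The reporting summary of the paper gives the vehicle library the larger number of reads, so the longer TGFβ 2 h list came from the library with fewer reads. Treatment, depth and strength of digestion cannot be told apart. Cells came from 1 line, and in a bulk library a site open in fewer cells cannot be told apart from a site less open in each cell. Against the epithelial label, the promoters of Cdh1 (E-cadherin), Krt8 and Krt18 (keratins of simple epithelium) carried a peak in both lists, while those of Epcam and Cldn4 carried none in either list. The promoters of Ptprc, Cd3e, Pecam1, Myod1 and Neurod1, which mark leukocytes, T cells, endothelium, muscle and neurons, carried none in either list.

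A TGFβ family ligand binds a type II receptor kinase, which phosphorylates a type I receptor kinase. The activated type I receptor phosphorylates receptor Smads, which join Smad4 and enter the nucleus to act on enhancers and promoters together with other factors. The same pathway induces several of its own inhibitors, and AP-1 (dimers of Jun and Fos proteins) often shares sites with Smads.

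Sequences are shown for the sites by which the lists differed near these genes. For each gene and list the distal peak of highest score with no overlap in the other list is given, except that of Smad4, as the 200 bases around its midpoint, on mouse build mm9 (sequence of NCBIM37). A distal peak lies more than 1000 bp from every annotated transcript start. The vehicle-only peak of Tgfbr3 lies over an untranslated exon and is given by position only. Capitals mark exact matches, on either strand, to GTCTG (a short Smad-binding string) or GGAATG (a string bound by TEAD factors). The strings TGACTCA (AP-1), TGACGTCA (the CRE of CREB and ATF factors) and GTCTAGAC (a palindromic Smad site) were also searched. None of the 5 strings contains another, and a match is a description of the letters.
Smad3, TGFβ 2 h-only, intron (chr9:63549210-63549409, + strand): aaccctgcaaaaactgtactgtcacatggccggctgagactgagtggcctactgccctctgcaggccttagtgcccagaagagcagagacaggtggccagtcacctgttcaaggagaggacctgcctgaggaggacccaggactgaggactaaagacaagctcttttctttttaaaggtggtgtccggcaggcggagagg
Acvr1, TGFβ 2 h-only, intron (chr2:58401441-58401640, + strand): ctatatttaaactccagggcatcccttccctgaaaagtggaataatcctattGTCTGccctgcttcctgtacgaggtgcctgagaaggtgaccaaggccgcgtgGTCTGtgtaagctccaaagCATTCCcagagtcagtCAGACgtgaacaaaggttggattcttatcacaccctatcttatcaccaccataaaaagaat
Tgfbr3, TGFβ 2 h-only, downstream of the gene (chr5:107516433-107516632, + strand): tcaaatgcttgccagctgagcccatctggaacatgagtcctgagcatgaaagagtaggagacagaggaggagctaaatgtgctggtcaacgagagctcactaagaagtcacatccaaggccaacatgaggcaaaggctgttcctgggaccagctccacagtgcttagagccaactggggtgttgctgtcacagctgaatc
Bmpr2, TGFβ 2 h-only, downstream of the gene (chr1:59940693-59940892, + strand): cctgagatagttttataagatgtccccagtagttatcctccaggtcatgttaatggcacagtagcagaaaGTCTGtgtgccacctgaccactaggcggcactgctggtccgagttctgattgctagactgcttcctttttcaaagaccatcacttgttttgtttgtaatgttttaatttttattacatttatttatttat
Tgfbr1, TGFβ 2 h-only, downstream of the gene (chr4:47432270-47432469, + strand): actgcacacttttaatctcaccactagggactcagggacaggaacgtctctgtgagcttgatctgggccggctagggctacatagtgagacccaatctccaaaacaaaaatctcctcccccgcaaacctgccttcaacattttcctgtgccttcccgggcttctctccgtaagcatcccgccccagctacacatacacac
Smad3, vehicle-only, intron (chr9:63525863-63526062, + strand): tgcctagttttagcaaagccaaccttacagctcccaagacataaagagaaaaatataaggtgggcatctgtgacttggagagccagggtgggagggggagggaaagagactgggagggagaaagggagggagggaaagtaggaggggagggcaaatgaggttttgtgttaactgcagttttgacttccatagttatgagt
Acvr1, vehicle-only, intron (chr2:58398657-58398856, + strand): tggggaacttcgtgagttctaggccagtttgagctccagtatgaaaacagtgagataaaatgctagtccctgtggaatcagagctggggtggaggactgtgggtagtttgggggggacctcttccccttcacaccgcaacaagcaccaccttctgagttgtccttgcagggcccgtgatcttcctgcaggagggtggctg
Acvr1b, vehicle-only, downstream of the gene (chr15:101064050-101064249, + strand): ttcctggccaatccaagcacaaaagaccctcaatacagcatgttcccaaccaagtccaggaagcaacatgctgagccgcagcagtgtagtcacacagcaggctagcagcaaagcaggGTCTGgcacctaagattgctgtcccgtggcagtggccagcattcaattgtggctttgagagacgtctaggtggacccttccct
The TGFβ 2 h-only window of Acvr1 held 3 of the Smad-binding strings and 1 TEAD string. The vehicle-only window of Acvr1, the TGFβ 2 h-only windows of Tgfbr3 and Tgfbr1 and both windows of Smad3 held no match to any of the 5 strings. The vehicle-only window of Tgfbr3, not printed, held 2 matches to GTCTG.

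A further set shows every AP-1 string found in the central 200 bp of a TGFβ 2 h peak near these genes, with 17 bases on either side and the match in capitals. This set was chosen after the values were seen. Smad3 supplied 5 of the 8 sequences, and the others came from Tgfbr1, Bmpr1a and Tgfbr3.
Smad3, intron, in both lists (chr9:63522613-63522653, + strand): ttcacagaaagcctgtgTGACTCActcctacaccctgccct
Smad3, intron, TGFβ 2 h-only (chr9:63566705-63566745, + strand): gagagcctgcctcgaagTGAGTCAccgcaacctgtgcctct
Smad3, near its later start, in both lists (chr9:63591845-63591885, + strand): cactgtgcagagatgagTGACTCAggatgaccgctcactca
Smad3, intron, in both lists (chr9:63594066-63594106, + strand): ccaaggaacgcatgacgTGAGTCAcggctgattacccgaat
Smad3, upstream, in both lists (chr9:63641672-63641712, + strand): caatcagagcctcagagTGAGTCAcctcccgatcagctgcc
Tgfbr1, within Col15a1, in both lists (chr4:47323857-47323897, + strand): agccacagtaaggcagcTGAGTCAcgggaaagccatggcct
Bmpr1a, downstream, in both lists (chr14:35176761-35176801, + strand): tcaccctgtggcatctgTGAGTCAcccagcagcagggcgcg
Tgfbr3, upstream, TGFβ 2 h-only (chr5:107724392-107724432, + strand): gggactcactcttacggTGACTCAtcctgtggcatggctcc

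Most promoters of these genes were open in both lists. A peak at the gene's own promoter, present in both lists, was found for 9 of the 10 genes, against 43.7% of all protein-coding genes. Tgfbr3 was the exception. None of the 13 vehicle promoter peaks lacked a partner (an interval that ends at 22.8%, against 7.29% of all vehicle promoter peaks). Of the 14 TGFβ 2 h promoter peaks 1 did (7.14%, against 10.1%), at the start of the neighbouring collagen gene Col15a1. All 7 vehicle-only peaks and 12 of the 13 TGFβ 2 h-only peaks (92.3%, 66.7 to 98.6) were distal, beside 76.1% and 85.7% of such peaks over the whole lists. These shares were near the background.

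**Figure D1:**
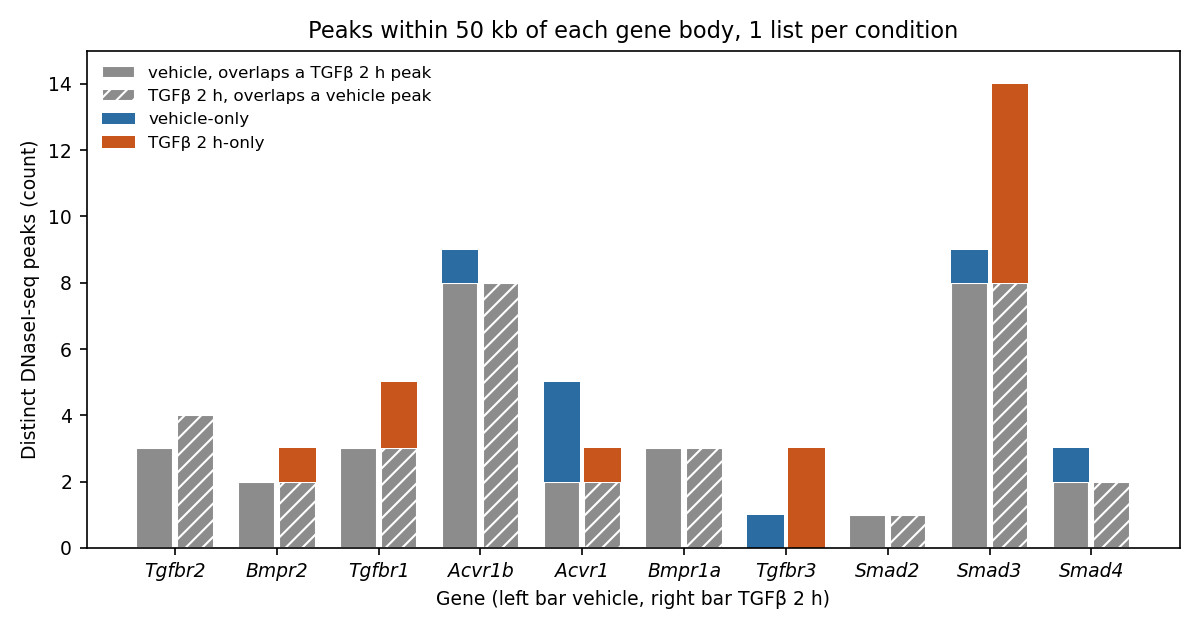
Distinct peaks within 50 kb of each gene body (bars, count), with the vehicle list on the left and the TGFβ 2 h list on the right of each pair. Grey parts overlap a peak of the other list, blue is vehicle-only and orange is TGFβ 2 h-only; Smad3 has 9 vehicle and 14 TGFβ 2 h peaks, and Tgfbr3 has no grey part.

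Near the 10 genes, 13 of 46 TGFβ 2 h peaks shared no base with a vehicle peak (28.3%, Wilson 95% interval 17.3 to 42.5). Over the whole TGFβ 2 h list this share was 33.7%, so the receptor and Smad genes did not stand above the background. In the vehicle list 7 of 39 peaks had no partner (17.9%, 8.98 to 32.7), beside 17.6% over the whole list. The intervals cover the counting of peaks only. Unshared peaks were 1.86 times as many in the TGFβ 2 h list as in the vehicle list (exact binomial 95% interval 0.689 to 5.50), against 2.43 over all peaks. With both lists cut to equal length the order turned, at 9 TGFβ 2 h-only against 10 vehicle-only peaks. Leaving out Smad3, which held 6 of the 13 TGFβ 2 h-only peaks, gave 7 TGFβ 2 h-only and 6 vehicle-only peaks and a ratio of 1.17. Leaving out Acvr1, which held 3 of the 7 vehicle-only peaks, gave 12 TGFβ 2 h-only and 4 vehicle-only peaks, and a vehicle-only share of 11.8%.

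Of 32 distal TGFβ 2 h peaks, 12 were TGFβ 2 h-only (37.5%, 22.9 to 54.7), beside 55.3% of all distal peaks of that list. Without Smad3 the share was 6 of 21 (28.6%). Of 26 distal vehicle peaks, 7 were vehicle-only (26.9%, 13.7 to 46.1), beside 31.6% over the whole list. The share of TGFβ 2 h-only distal sites was thus lower near these genes than over the whole list, whose value lay just above the interval. Leaving out Tgfbr2 (41.4%, 25.5 to 59.3), Tgfbr1 (37.9%, to 56.0), Acvr1b (46.2%, to 64.5), Bmpr1a (40.0%, to 57.7) or Smad4 (38.7%, to 56.2) put the whole-list value inside the interval. This order depended on the window: within gene bodies the share was 5 of 9 (55.6%), and within 10 kb of them it was 7 of 12 (58.3%).

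**Figure D2:**
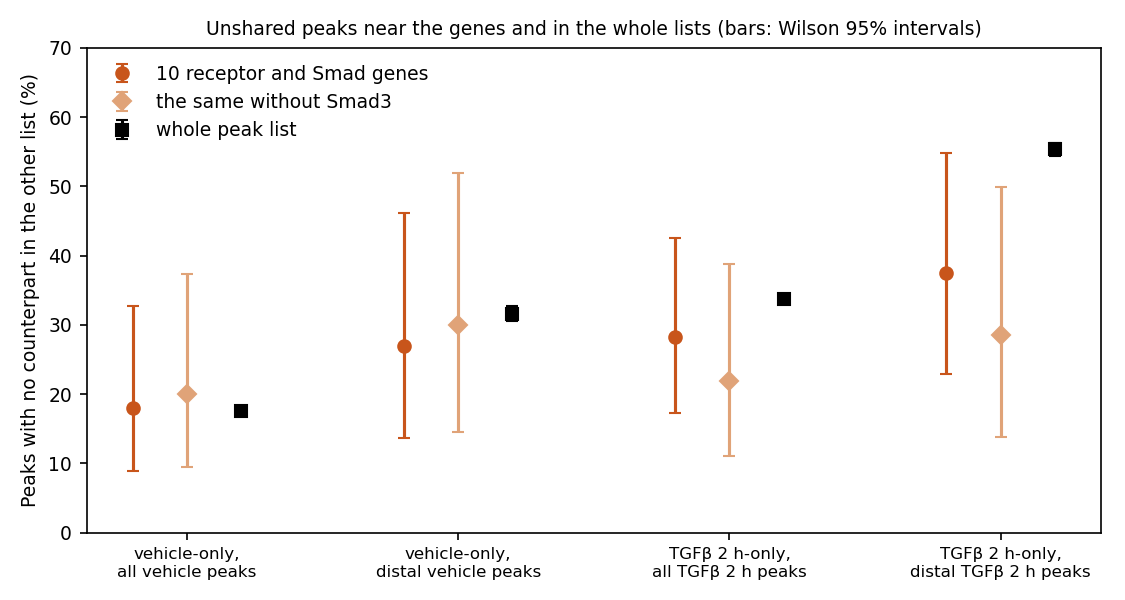
Share of peaks without a counterpart in the other list (y axis, %), for all and for distal peaks of each list, with Wilson 95% intervals as bars. The 10 genes (orange circles), the same genes without Smad3 (light diamonds) and the whole list (black squares) are set side by side; the distal TGFβ 2 h-only share was 37.5% for the 10 genes and 55.3% for the whole list.

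By gene, 5 of 10 had a TGFβ 2 h-only peak (Bmpr2, Tgfbr1, Acvr1, Tgfbr3 and Smad3), beside 40.5% of protein-coding genes. The number was 2 within gene bodies, 8 within 100 kb and 3 with lists of equal length, while the 40.5% holds for 50 kb and the full lists. A vehicle-only peak lay near 5 of 10 (Acvr1b, Acvr1, Tgfbr3, Smad3 and Smad4), beside 25.9%. These genes are long, with a median of 91.8 kb (38.5 to 183) against 15.4 kb for all protein-coding genes, and their windows are accordingly wider. Per 100 kb of summed windows there were 0.653 TGFβ 2 h-only and 0.351 vehicle-only peaks, against 0.468 and 0.234 for all protein-coding genes. Single genes carried both differences: without Smad3 the first rate was 0.393, and without Acvr1 the second was 0.233. The TGFβ 2 h list held more peaks than the vehicle list at 5 genes, fewer at 3 and as many at 2, beside 33.6%, 13.2% and 53.2% of protein-coding genes.

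Neither type II receptor had a vehicle-only peak, and the same held for Tgfbr1, Bmpr1a and Smad2. Over the whole vehicle list 82.4% of peaks had a partner. Tgfbr2 (chr9:115993415-116084383, minus strand), which binds TGFβ itself, had 3 vehicle and 4 TGFβ 2 h peaks, all of them shared. Its promoter peak was 1188 bp wide with vehicle (chr9:116083604-116084791) and 1224 bp wide after TGFβ (chr9:116083561-116084784). It was the only own promoter of the 10 genes whose peak was wider after TGFβ, and the only one whose TGFβ 2 h score was below the ceiling of 1000, at 987. The deposited score is a whole number per peak, from 540 to 1000, and it ranks peaks within its own list only. A vehicle peak 12.1 kb upstream of the start (chr9:116096010-116096976) corresponded to a pair of TGFβ 2 h peaks, of 703 bp and 203 bp. That split accounts for the higher TGFβ 2 h count of Tgfbr2. A further site 43.7 kb upstream of the start was in both lists, 636 bp wide with vehicle and 490 bp wide after TGFβ.

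Bmpr2 (chr1:59821481-59927703, plus strand), the type II receptor for BMP ligands, had 2 vehicle and 3 TGFβ 2 h peaks. The peak counted at its promoter lay upstream of the annotated start, with its midpoint 1.11 kb away for vehicle (chr1:59819677-59821066) and 1.22 kb away after TGFβ (chr1:59819744-59820783). The other shared peak lay at the start of the neighbouring gene Fam117b. The TGFβ 2 h-only site (chr1:59940708-59940878) was small, 171 bp wide with a score of 564 and lay 13.0 kb past the end of the gene.

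The 4 type I receptors together held 20 vehicle and 19 TGFβ 2 h peaks, of which 4 and 3 had no partner. Tgfbr1 (chr4:47366094-47427803, plus strand), the kinase that phosphorylates Smad2 and Smad3, went from 3 to 5 peaks. Its promoter was open in both lists (chr4:47365511-47366683 with vehicle and chr4:47365600-47366537 after TGFβ). One TGFβ 2 h-only site (chr4:47432166-47432574, score 569) lay 4.36 kb past the end of the gene. The other (chr4:47316503-47316912, score 617) lay 49.2 kb outside the gene at the start of Col15a1, which encodes a collagen of basement membranes, so its place in the Tgfbr1 window rests on the edge of the 50 kb rule. A site within Col15a1 42.3 kb upstream of Tgfbr1 was in both lists, with a score of 721 in the vehicle list and at the ceiling in the TGFβ 2 h list, while its width went from 909 bp to 466 bp.

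Acvr1b (chr15:101004556-101043032, plus strand), the activin type I receptor that also signals to Smad2 and Smad3, had the densest window per length among the receptors, with 9 vehicle and 8 TGFβ 2 h peaks, or 6.50 vehicle peaks per 100 kb. The 8 TGFβ 2 h peaks were all shared. They comprised its promoter (chr15:101003968-101004743 with vehicle and chr15:101003999-101004758 after TGFβ), the start of Grasp, and distal sites of which most lay downstream of the gene. At 7 of these sites the vehicle peak was at the ceiling of its list. The vehicle-only peak (chr15:101063939-101064362, score 640) lay 20.9 kb past the gene and 1518 bp from the nearest TGFβ 2 h peak.

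Acvr1 (chr2:58241055-58419568, minus strand), a type I receptor for BMPs and activins, was the gene with the most vehicle-only peaks. It had 5 vehicle and 3 TGFβ 2 h peaks, with 3 vehicle-only and 1 TGFβ 2 h-only. The vehicle-only peaks lay in introns of Acvr1 (chr2:58398590-58398924, score 596, and chr2:58414407-58414917, score 571) and in an intron of the neighbouring gene Upp2 (chr2:58441941-58442294, score 581). All 3 were among the lower-scoring peaks of the vehicle list, of which 91.1% to 94.8% scored higher. The TGFβ 2 h-only peak (chr2:58401344-58401738) had a score of 992 and lay in an intron too, 2420 bp from the nearest vehicle-only peak. In this stretch of the gene the lists thus held different peaks a few kb apart. The promoter, which also covers the start of Upp2, was in both lists (chr2:58418850-58420183 with vehicle and chr2:58418909-58420107 after TGFβ), as was a site 82.6 kb into the gene.

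Bmpr1a (chr14:35223920-35316527, minus strand), a BMP type I receptor, had 3 peaks in each list and all were shared. They were its promoter (chr14:35315138-35316580 with vehicle and chr14:35315496-35316504 after TGFβ), a site 46.5 kb past the gene, and a site in an intron of Ldb3 46.0 kb upstream.

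Tgfbr3 (chr5:107535589-107718648, minus strand) encodes betaglycan, which presents ligand to the signalling receptors. It was the only one of the 10 genes with no shared peak, a state found at 30.0% of protein-coding genes. None of its 4 annotated starts carried a peak in either list. The vehicle list held 1 peak, over an untranslated exon (chr5:107538438-107538831, score 605). The TGFβ 2 h list held 3 other peaks. One lay 5.84 kb upstream of the first start (chr5:107724255-107724729, score 693) and carried the AP-1 string shown above. The others lay downstream of the gene, at chr5:107516268-107516798 with a score of 949 and at chr5:107509030-107509455 with a score of 750. These 3 peaks were far from any vehicle peak, between 21640 and 63526 bp.

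**Figure D3:**
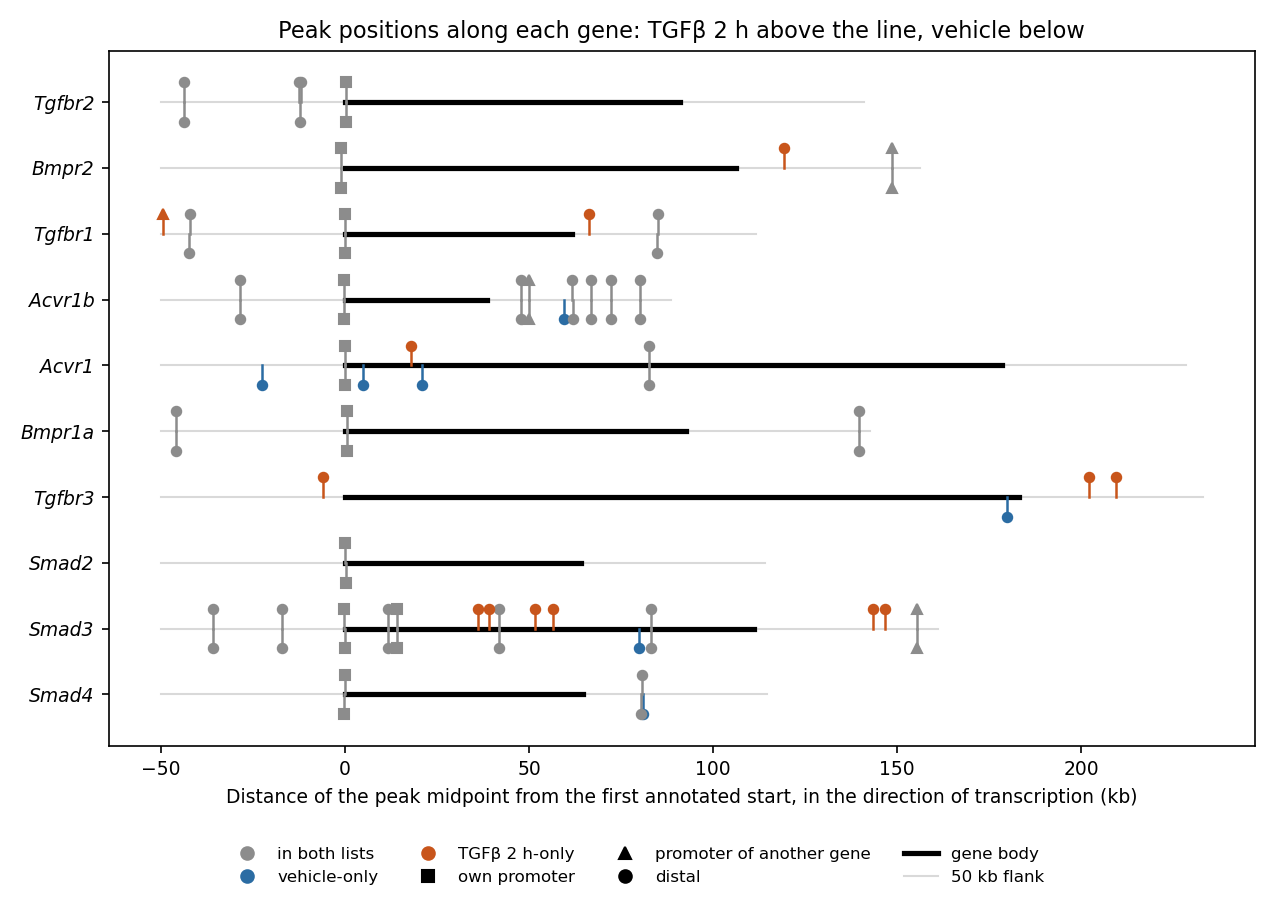
Positions of peak midpoints along each gene (x axis, kb from the first annotated start in the direction of transcription), with TGFβ 2 h peaks above and vehicle peaks below each line; black bars are gene bodies and thin lines the 50 kb flanks. Grey marks are in both lists, orange TGFβ 2 h-only and blue vehicle-only, with squares for own promoters, triangles for promoters of other genes and circles for distal sites; the orange marks gather in Smad3 and none lies near Smad2 or Smad4.

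The Smads differed sharply among themselves. Smad3, which binds DNA and carries TGFβ and activin signals, held 14 TGFβ 2 h peaks and 9 vehicle peaks, whereas Smad2 and Smad4 together held 3 TGFβ 2 h peaks and 4 vehicle peaks. Smad3 (chr9:63494574-63605801, minus strand) also had the most TGFβ 2 h-only peaks of the 10 genes per length, with 6 in its window, or 2.84 per 100 kb. Of these, 4 lay in its own introns. Only 0.590% of protein-coding genes had 4 or more such peaks in the gene body, a threshold set after the Smad3 value was seen. That share was not matched for length: Smad3 spans 111 kb, against a median of 15.4 kb for all protein-coding genes.

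The 4 intronic sites of Smad3 lay between 36.2 and 56.5 kb from the first start, a stretch in which the vehicle list held only 1 peak. The strongest (chr9:63548886-63549735) was 850 bp wide, reached the ceiling of 1000, and lay 14036 bp from the nearest vehicle peak. It was the only TGFβ 2 h-only peak near the 10 genes at the ceiling. The next (chr9:63554025-63554552) had a score of 981 and lay 9219 bp from a vehicle peak. The others (chr9:63566581-63566891, score 686, with the AP-1 string shown above, and chr9:63569305-63569803, score 701) lay on the promoter side of a site in both lists 41.8 kb from the start, which was 463 bp wide in each list. The remaining pair, at chr9:63458733-63459219 with a score of 630 and chr9:63462234-63462514 with a score of 688, lay in introns of Aagab, 35.4 and 32.1 kb past the end of Smad3.

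Sites of Smad3 present in both lists included its promoter (chr9:63605182-63606375 with vehicle and chr9:63605522-63606380 after TGFβ), at the ceiling in each list. A site near the start of a shorter transcript annotated without a coding sequence (chr9:63591492-63592007) had a score of 764 in the vehicle list and reached 1000 in the TGFβ 2 h list (chr9:63591563-63592024). Close by, an intronic peak was 575 bp wide with vehicle (chr9:63593743-63594317) and 851 bp wide after TGFβ (chr9:63593670-63594520), a ratio of 1.48 and the largest widening among the 31 pairs. Upstream of the gene, sites 17.1 and 35.9 kb from the start were in both lists. The vehicle-only peak of Smad3 (chr9:63525490-63526437, score 650) was 948 bp wide and lay 2513 bp from the nearest TGFβ 2 h peak, which was one of the shared sites.

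Smad2, the other receptor Smad of the TGFβ and activin branch (chr18:76401234-76465385, plus strand), had a single peak in each list, its promoter. The peak was 1364 bp wide with vehicle (chr18:76400724-76402087) and 906 bp wide after TGFβ (chr18:76400719-76401624), and it was at the ceiling in both lists. Smad4 (chr18:73798663-73863434, minus strand), the partner of all receptor Smads, had its promoter in both lists (chr18:73863100-73864044 with vehicle and chr18:73863134-73863946 after TGFβ) and a shared site 15.3 kb past the gene. Its vehicle-only peak (chr18:73782467-73782539) was only 73 bp wide, with a score of 549, and lay 99 bp from the TGFβ 2 h peak of that shared site.

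The TGFβ 2 h-only sites resembled such sites elsewhere in score and width. Their median score was 693 and their median width 426 bp, against 669 and 436 bp over all TGFβ 2 h-only peaks. The 7 vehicle-only peaks had a median score of 596 and a median width of 394 bp, against 654 and 471.5 bp over all vehicle-only peaks. Each TGFβ 2 h-only peak lay at least 2348 bp from any vehicle peak. The vehicle-only peaks lay between 99 and 21834 bp from a TGFβ 2 h peak.

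Sites present in both lists were mostly narrower after TGFβ. Of the 31 pairs in which a single peak overlapped a single peak, 27 were narrower in the TGFβ 2 h list (87.1%, 71.1 to 94.9), against 70.9% over the whole series, a value just below the interval. Leaving out Bmpr2, Tgfbr1, Acvr1b, Bmpr1a, Smad2 or Smad4 gave 82.6% to 86.7% with that value inside the interval. Within gene bodies it was 9 of 13 (69.2%), below the share of the whole series. The median ratio of TGFβ 2 h to vehicle width was 0.816 (range 0.457 to 1.48), against 0.906. Promoter pairs were narrower in 12 of 13 cases (92.3%, 66.7 to 98.6, against 75.9% over the whole series). Distal pairs were narrower in 15 of 18 (83.3%, 60.8 to 94.2, against 61.9%). Both whole-series values lay within the intervals. The 3 wider pairs were the Tgfbr2 promoter (ratio 1.03), the intronic site of Acvr1 (1.04) and the intronic site of Smad3 (1.48). In 16 pairs both peaks were at the ceiling, so the scores cannot order them. A called width depends on depth and on the peak caller, whose part in the narrowing was not tested.

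**Figure D4:**
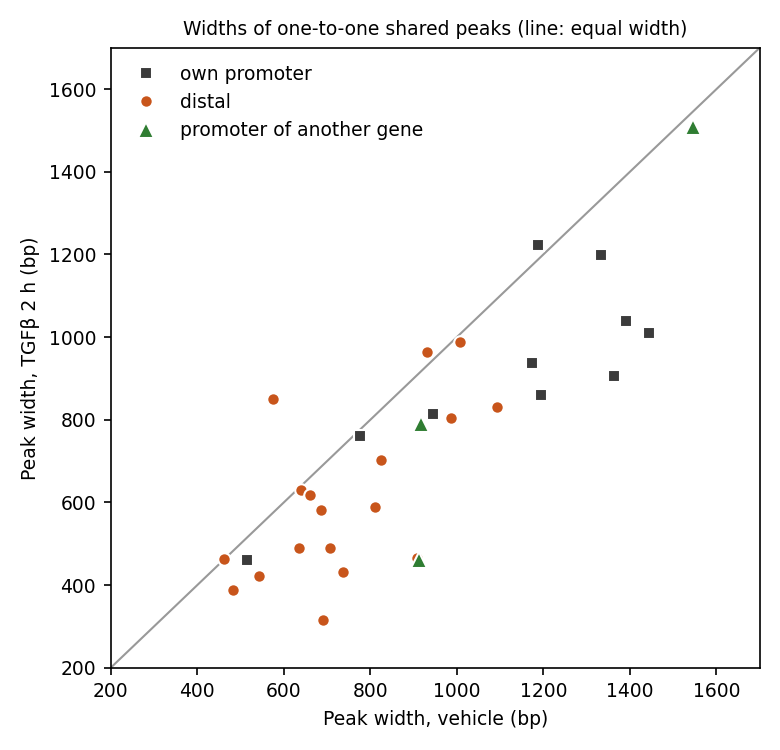
Widths of the 31 one-to-one shared peaks (x axis, vehicle, bp; y axis, TGFβ 2 h, bp), with the line of equal width. Squares are own promoters, triangles promoters of other genes and circles distal sites; 27 points lie below the line, 3 above and 1 on it.

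How the AP-1 string compared with the whole list depended on the bases searched and on the window around the genes. In the central 200 bp it was found in 7 of 32 distal TGFβ 2 h peaks (21.9%, 11.0 to 38.8), against 25.5% of all distal peaks of that list. Of the TGFβ 2 h-only distal peaks 2 of 12 had it (16.7%, against 27.2%), of the shared ones 5 of 20 (25.0%, against 23.4%), and of the vehicle-only ones 0 of 7 (an interval that ends at 35.4%, against 7.73%). Smad3 accounted for 4 of the 7, and for all 3 of the 26 distal vehicle peaks that had it (11.5%, 4.00 to 29.0, against 17.7%). Within gene bodies the share was 3 of 9 and within 10 kb of them 4 of 12 (33.3% each). Searching the whole peak gave 14 of 32 distal TGFβ 2 h peaks (43.8%, against 44.8%) and 6 of 12 TGFβ 2 h-only ones (50.0%, against 45.2%). In the vehicle list it gave 12 of 26 distal peaks (46.2%, 28.8 to 64.5, against 35.7%) and 4 of 7 vehicle-only ones (57.1%, 25.0 to 84.2, against 16.8%), the last with an interval above the whole-list value. Among the 14 promoter peaks of the TGFβ 2 h list 1 had the string in its central 200 bp, at the later start of Smad3 (7.14%, 1.27 to 31.5, against 3.73%).

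The short Smad string GTCTG was in 10 of 32 distal TGFβ 2 h peaks (31.2%, with an interval that ended at 48.6), against 51.3% of all distal peaks of that list. It was in 3 of 12 TGFβ 2 h-only peaks (25.0%) and in 5 of 7 vehicle-only peaks, against 54.5% and 45.5% over the lists. Of the distal vehicle peaks 11 of 26 had it (42.3%, against 47.0%). Over whole peaks the list's share lay within the interval, with the string in 23 of 32 distal TGFβ 2 h peaks (71.9%, 54.6 to 84.4, against 78.4%) and in 9 of 12 TGFβ 2 h-only ones (75.0%, against 77.0%). The palindrome GTCTAGAC and the CRE were in 0 of 32, for which the interval ends at 10.7%, with shares over the list of 0.501% and 0.484%. The TEAD string was in 4 of 32 distal TGFβ 2 h peaks (12.5%, against 15.4%) and in 6 of 26 distal vehicle peaks (23.1%, against 14.8%). Over whole peaks it was in 9 of 32 (28.1%, against 33.6%) and 15 of 26 (57.7%, 38.9 to 74.5, against 37.0%), so the vehicle share lay above that of its list.

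The 20 other genes of the pathway held 63 vehicle and 83 TGFβ 2 h peaks, of which 7 (11.1%, 5.49 to 21.2) and 26 (31.3%, 22.4 to 41.9) had no partner, beside 17.6% and 33.7% over the whole lists. Their ratio was 3.71 (1.57 to 10.1), against 2.43 over all peaks. At promoters, 10 of 50 TGFβ 2 h peaks had no partner (20.0%, 11.2 to 33.0), against 10.1% over the list. Eng carried both differences: without its window the ratio was 17 to 7, or 2.43, and 3 of 40 promoter peaks had no partner. In each list 2 of these peaks also lay in the window of a receptor or Smad gene, since Acvr1b and Acvrl1 are 28.8 kb apart. The 6 inhibitors (Smad6, Smad7, Bambi, Ski, Skil and Tgif1) had 16 vehicle peaks, all shared, and 30 TGFβ 2 h peaks, 13 of them TGFβ 2 h-only and spread over 5 of the 6 genes. Over the whole TGFβ 2 h list 33.7% of peaks were TGFβ 2 h-only, and 40.5% of protein-coding genes had such a peak within 50 kb. The 8 other receptors and co-receptors had 22 vehicle and 30 TGFβ 2 h peaks, with 10 TGFβ 2 h-only peaks in the windows of 2 genes. Of these, 9 lay in the window of Eng, but only 3 in its gene body. The 6 remaining Smads, adaptors and partners had 25 and 23, with 3 TGFβ 2 h-only. No test compared these groups with the 10 receptor and Smad genes, which held 13 TGFβ 2 h-only peaks in windows of 1992 kb, against 26 in 3130 kb for the 20 genes. The window of Eng, 136 kb wide, held 9 of the 26 and left 17. The higher rate of the 20 genes thus rested on Eng as well.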

How the data were processed

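The 2 samples were grouped by title. Per the labels and methods, the authors digested nuclei with DNaseI, aligned reads to mouse build mm9 and called peaks; the submitters' processing notes name MACS2 2.1.2 and deepTools. The methods refer to the ATAC-seq pipeline of the study with options of its own for DNaseI-seq, and the paper's listing names merged reads for each condition. Those options are not given in the sources used here. The paper's read numbers were not used. The deposited score is the authors' whole-number score per peak (540 to 1000 in both lists). Its formula is not stated, and it was used only within its list.

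Repeated rows of an interval were collapsed to 1 peak. Gene models were GENCODE M1 on NCBIM37. Peaks overlapping by 1 bp were called shared. A promoter peak overlapped 1000 bp on either side of any annotated start. "Only" says in which list a peak was called, and does not mean that the other library had no signal there. Locations in genes were read at peak midpoints, and motifs were exact strings in 200 bp around them. Scripts used Python 3.11.15, NumPy 2.4.6, SciPy 1.17.1 and pysam 0.24.0, and the overlap step was tested on simulated data.

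The members, the list of 20 pathway genes and the cell markers were chosen with earlier results of these data known. All members were named, with every own-promoter and unshared peak, and with a sequence for the unshared distal peak of highest score per gene and list, except on chromosome 18 and over an untranslated exon (Tgfbr3). Alternatives changed the flank, the overlap, the promoter window, the width and score filters, the list length, the counting of rows and the motif window, or left out single genes.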

Additional observations from a re-analysis of the deposited data

How the results depend on the processing

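Of 152 values computed under other settings, 139 were counted as unchanged. These stayed within the counting interval of the main value or, for counts of genes, within 1.5 times. Direction was checked for ratios only, as above or below 1. No value was checked for its order against the whole list, and many came from leaving out a single gene. Counting peaks in gene bodies only gave a distal TGFβ 2 h-only share of 55.6%, a distal vehicle-only share of 50.0%, 2 genes with a TGFβ 2 h-only peak and 69.2% of pairs narrower after TGFβ. A 10 kb flank gave a distal TGFβ 2 h-only share of 58.3%, and a 100 kb flank gave 8 genes with a TGFβ 2 h-only peak. Keeping peaks that reached the median score gave a distal TGFβ 2 h-only share of 57.1%, and 9 TGFβ 2 h-only against 2 vehicle-only peaks. With cuts of 1000 for vehicle and 927 for TGFβ 2 h, 5 of the 9 and both of the 2 were shared peaks whose partner fell under its cut. Shortening the TGFβ 2 h list by score until both were equally long reversed the ratio of peaks to 0.974 (38 against 39) and that of unshared peaks to 0.900 (9 against 10), and left 3 genes with a TGFβ 2 h-only peak; lists of equal length hold similar numbers of unshared peaks by construction. Counting every deposited row reversed the ratio of peaks to 0.893 (142 against 159), since vehicle peaks spanned more rows, and gave a TGFβ 2 h-only share of 16.9%. Searching whole peaks gave an AP-1 share of 43.8%, over longer sequence. The cause of the other changes was not tested. No paired analysis was possible because there was a single list for either treatment. With unequal depth and no replicate, a peak missing from a list may lie under its calling threshold.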

Other observations

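Among the 20 other pathway genes, Eng, which encodes the co-receptor endoglin, had the most TGFβ 2 h-only peaks. Its window (gene body chr2:32502115-32538189) held 5 vehicle peaks, all shared, and 14 TGFβ 2 h peaks, 9 of them TGFβ 2 h-only. Only 3 of these 9 lay in the gene body of Eng. Others lay at starts of the neighbouring genes Ak1, Fpgs and Sh2d3c. The 3 in the gene body included peaks at later annotated starts of Eng, at chr2:32527586-32527952 with a score of 810 and at chr2:32535420-32536093 at the ceiling. The inhibitory Smads also had more peaks in the TGFβ 2 h list. Smad7 had 3 vehicle and 7 TGFβ 2 h peaks, and Smad6 had 4 and 7. A TGFβ 2 h-only peak at the start of Smad6 (chr9:63869659-63870169) was at the ceiling, and a shared peak lay just upstream of it. Ski, a repressor of Smad complexes, had 4 vehicle and 8 TGFβ 2 h peaks, and Skil had 2 and 4. Bambi, a decoy receptor, had 1 in each list. Bmpr1b and Acvr1c, type I receptors, had no peak within 50 kb in either list. Smad6 lies 195.2 kb from Smad3 on the same chromosome, so their windows did not overlap, whereas those of Acvr1 and Acvr1c (30.7 kb apart) and of Acvr1b and Acvrl1 (28.8 kb apart) did. These genes were picked after their values were seen, and no test was made.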
